A study of Homo sapiens with 6 samples.

Results

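Amino acids enter cells through membrane carriers, and 10 genes of such carriers are described here by their transcripts: SLC7A11, SLC7A5, SLC3A2, SLC7A1, SLC1A4, SLC1A5, SLC38A1, SLC38A2, SLC6A9 and SLC43A1. They were taken by gene symbol, each symbol matched 1 Ensembl gene, and the set is 10 of the 20042 genes in the count table. RNA was sequenced from MDA-MB-231, a line of human breast cancer cells with a mesenchymal character that is kept in culture. In 3 samples the cells were transfected with a control siRNA (siCTRL, genotype given as WT), and in 3 with siRNA-1 against ERBBride (genotype given as ERBBride knock down). An siRNA is a short RNA duplex that directs the breakdown of matching transcripts. The labels call the 3 samples of a group biological replicates without saying how they were separated, so the p-values rest on the spread among 6 samples, which may be partly technical. All are of 1 cell line given 1 targeting siRNA, no time after transfection was found in the labels, and the level of ERBBride itself was not analysed here.

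Some of these carriers work alone and others as pairs of proteins. SLC3A2 is the heavy chain that brings a light chain, such as SLC7A5 or SLC7A11, to the cell surface, where the light chain moves the amino acid. Several of the genes are known targets of ATF4, a transcription factor made when amino acids are scarce, and of MYC, and cancer cells often carry more of them than normal tissue.

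The libraries held 12813706 to 15014434 counts, and 12440 genes had enough counts to be tested. Levels are given as CPM, the count of a gene relative to the library total, after TMM scaling, which sets the libraries to a common level. A gene is said to have risen or fallen where the quasi-likelihood test of edgeR gave an adjusted p under 0.05, with the adjustment over all genes tested. Many genes passed: 62.5% of those tested, with 31.0% lower and 31.5% higher in siRNA-1 cells. The library siCTRL 2 stood apart, with a chi-square per degree of freedom of 11.3 and 11.4 against the other controls, where the other pairs of the same group gave 2.12 to 2.40. Without siCTRL 2, 68.7% of genes passed. The markers of the cell line (VIM, CD44, EGFR, KRT18, AXL and CAV1) summed to 6698 to 6956 CPM in the controls and 3908 to 4081 CPM in siRNA-1 cells, and 6 of 6 fell. Luminal breast markers summed to 27.8 to 32.1 CPM and 9.80 to 10.9 CPM (ESR1, PGR and FOXA1 at or near 0, 3 of 3 tested fell), and endothelial markers to 15.7 to 17.8 CPM and 8.38 to 10.8 CPM (CDH5 at 0, 2 of 2 tested fell). Blood cell markers summed to 126 to 176 CPM and 175 to 180.3 CPM, nearly all from CD68, which did not pass, with CD3E and HBB at 0. The part of these marker levels in the results was not tested.

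Of the 10 transporter genes, 9 fell in siRNA-1 cells, 0 rose, and SLC7A1 did not pass. The share of all tested genes that fell was 31.0%. The members were chosen with earlier results of these data known, so the shares over all genes are given as description, with no set test. All 10 members passed the filter on low counts, and the count was lowest for SLC43A1, at 111 to 222 per library. In 9 of the 10 all siRNA-1 libraries lay below all control libraries, and groups did not overlap at 67.6% of all tested genes. The median log2 fold change of the members was -0.66, against 0.006 over all tested genes. SLC1A4, SLC7A11, SLC6A9 and SLC7A5 fell more than 2-fold, which 8.14% of all tested genes did. Among the controls siCTRL 2 had the highest level of 9 members (the exception was SLC3A2), and without that library 9 still fell, with a median of -0.63. Summed over the 10 genes, the transporters held 2682, 3015 and 2776 CPM in siCTRL 1 to 3 and 1869, 1933 and 1851 CPM in siRNA-1 replicates 1 to 3, so that the groups did not overlap. In bulk RNA, fewer cells that express a gene and less of its RNA in each cell cannot be told apart.

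**Figure D1:**
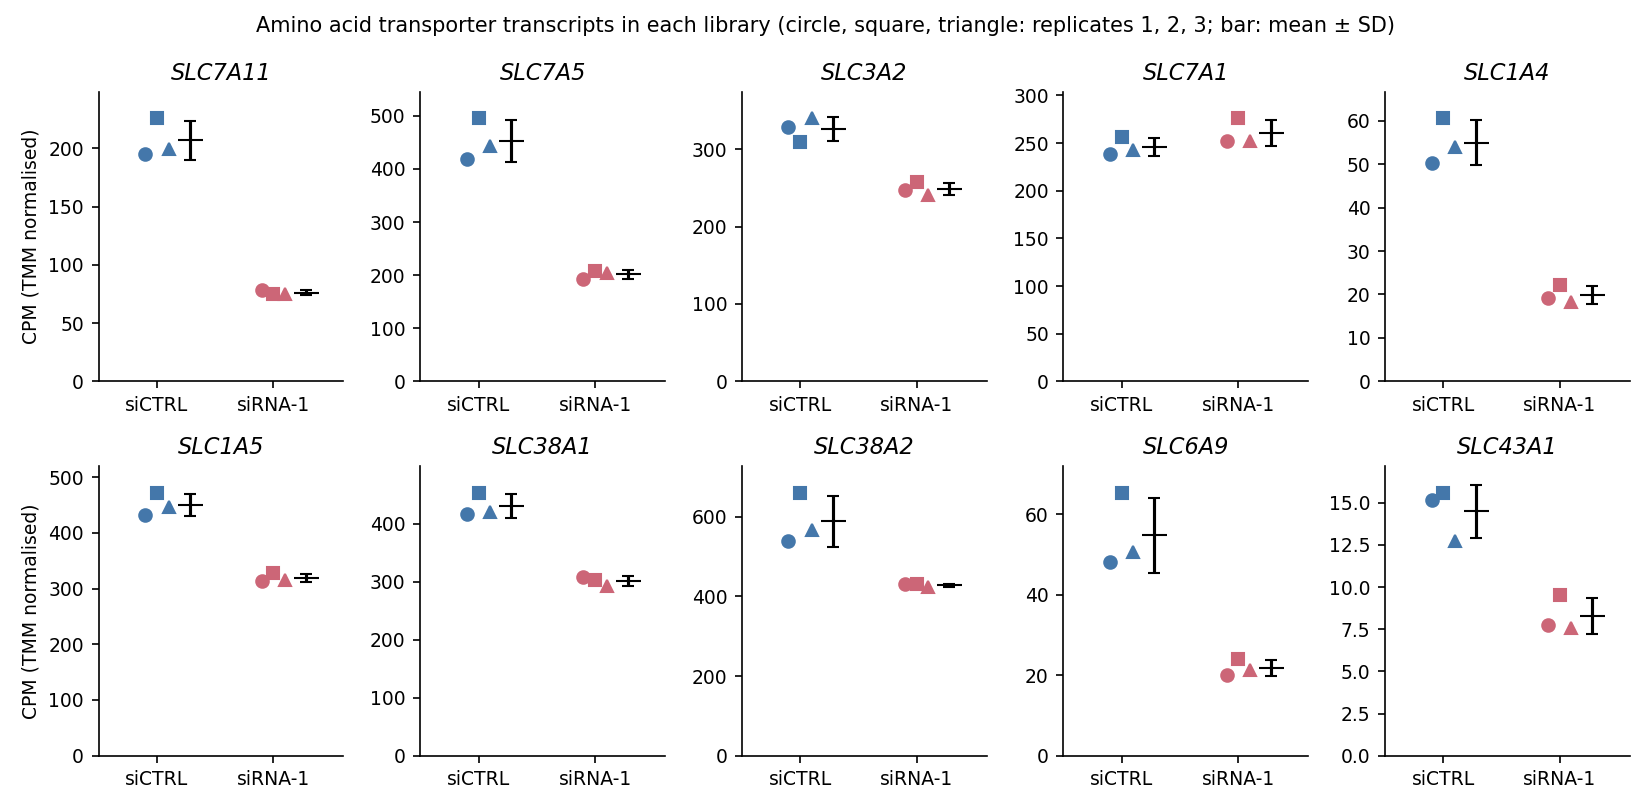
Level of each transporter transcript in each library (y axis, CPM from 0), with siCTRL in blue and siRNA-1 in red; the bar beside each group is the mean ± SD (n = 3). SLC7A1 is the gene whose groups overlap, and SLC7A11, SLC7A5, SLC1A4 and SLC6A9 show the widest gaps.

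The sequence near the start of these genes is shown because it holds letters that ATF4 and MYC are known to read. Windows from 250 bases before to 50 bases after each start site were taken from RefSeq (GRCh38.p14), which gave 16 windows for 9 of the members. SLC7A11 had no entry. The motif TGATGNAA, the core of the element bound by ATF4 with a C/EBP partner, was searched on both strands and was found in 5 of the 16 windows, in 5 members. It was present in 3.62% of all 35116 windows of that length. In the 30-base stretches that follow, written 5′ to 3′ on the strand of the gene, capitals mark this match.
SLC3A2, chr11:62881719-62881748, plus strand: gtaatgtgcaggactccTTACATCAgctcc
SLC7A1, chr13:29595663-29595692, minus strand: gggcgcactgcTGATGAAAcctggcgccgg
SLC1A4, chr2:64989381-64989410, plus strand: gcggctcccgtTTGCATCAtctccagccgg
SLC1A5, chr19:46784893-46784922, minus strand: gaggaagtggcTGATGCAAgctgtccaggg
SLC38A1, chr12:46266502-46266531, minus strand: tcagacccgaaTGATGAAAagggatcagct

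In SLC3A2 and SLC1A4 the match is on the opposite strand and reads as its reverse complement. Its first base was base 38 of the transcript in SLC3A2 and base 8 in SLC7A1. In SLC1A4, SLC1A5 and SLC38A1 it began 7, 97 and 4 bases before the start site. The matches in SLC3A2, SLC1A4, SLC1A5 and SLC38A1 belong to 1 of several start sites annotated for each of these genes, and gene counts do not show which start was used. Of the members with the motif in a window, 4 fell and SLC7A1 did not pass. SLC7A5, SLC38A2, SLC6A9 and SLC43A1, with no match in their windows, all fell. Sequence outside the windows, such as introns and regions further upstream, was not searched.

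CACGTG, the E-box bound by MYC with MAX and the same on both strands, was present in 3 of the 16 windows, those of SLC7A5 and SLC43A1 among them, and in 7.26% of all windows. The 250 bases before the start of SLC7A5 are given as the member with the highest control level per length among those that fell more than 2-fold, with the E-box in capitals.
SLC7A5, chr16:87869508-87869757, minus strand: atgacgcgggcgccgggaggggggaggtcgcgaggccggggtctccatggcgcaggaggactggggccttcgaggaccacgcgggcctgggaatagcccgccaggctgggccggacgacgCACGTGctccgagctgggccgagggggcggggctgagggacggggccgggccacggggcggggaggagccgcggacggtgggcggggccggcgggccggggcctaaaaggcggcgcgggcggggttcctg
SLC43A1, chr11:57515796-57515825, minus strand: agcgggcgagtCACGTGcgcgtgaaactcg

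The last motif, TGACNNNGC, the core of the antioxidant response element read by NFE2L2 (NRF2), was present on either strand in 4 of the 16 windows and in 13.3% of all windows. In these windows 0 matches of the 3 motifs overlap each other. A match describes letters in a window and not a site in use.

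The heavy chain and its light chains fell by unequal amounts. SLC3A2 (ENSG00000168003, chr11:62856102-62888875, plus strand), the shared heavy chain, measured 328.5, 309 and 340 CPM in siCTRL 1 to 3 and 247, 257 and 241 CPM in siRNA-1 replicates 1 to 3. All siRNA-1 libraries were below the lowest control, siCTRL 2. The fall was 1.31-fold (log2 fold change -0.39, SE 0.055, adjusted p = 6.4e-05, edgeR).

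SLC7A11 (ENSG00000151012, chr4:138164097-138242349, minus strand) encodes xCT, the light chain that imports cystine in exchange for glutamate and so feeds glutathione synthesis. Its level was 196, 226 and 199 CPM in the controls and 78.4, 75.2 and 74.6 CPM in siRNA-1 cells. The siRNA-1 libraries lay close together, and the highest of them was under the lowest control by a wide margin. SLC7A11 fell 2.72-fold (log2 fold change -1.44, SE 0.066, adjusted p = 8.6e-09, edgeR), and 3.74% of all tested genes had a lower log2 fold change. The gene SLC7A11-AS1 on the other strand covers 8.97% of its exonic bases. The labels do not say whether counting used strand, so reads of the pair cannot be told apart there.

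SLC7A5 (ENSG00000103257, chr16:87830023-87869488, minus strand) encodes LAT1, the light chain that brings in leucine and other large neutral amino acids in exchange for glutamine. Its level was 419, 495 and 443 CPM in the controls and 193, 208 and 204 CPM in siRNA-1 cells. The control siCTRL 2 was the highest, and the groups were far apart. SLC7A5 fell 2.25-fold (log2 fold change -1.17, SE 0.067, adjusted p = 4.8e-08, edgeR). An antisense gene covers 5.71% of its exonic bases, and the pseudogenes SLC7A5P2 and SMG1P3 each share 3.86% of its 50-base stretches, so a small part of its reads is uncertain.

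The ratio of 2 transcripts within a library needs no scaling between libraries, and 6 such pairs were compared. With 3 libraries against 3 the exact permutation test, two-sided, cannot go below p = 0.10, and 5 of the 6 pairs reached that value (adjusted p = 0.12 over the pairs). The log2 ratio of SLC7A11 to SLC3A2 counts was -0.75, -0.45 and -0.77 in the controls and -1.66, -1.77 and -1.69 in siRNA-1 cells, a 2.07-fold lower ratio (exact permutation p = 0.10). That of SLC7A5 to SLC3A2 was 0.35, 0.68 and 0.38 in the controls and -0.36, -0.31 and -0.24 in siRNA-1 cells, so that SLC7A5 counts exceeded those of the heavy chain in all controls and in 0 of the siRNA-1 libraries. Between the light chains, the log2 ratio of SLC7A5 to SLC7A11 went from 1.13 ± 0.029 to 1.41 ± 0.094 (SD, n = 3), with groups that did not overlap. The edgeR 95% intervals of their falls did overlap, at -1.59 to -1.30 for SLC7A11 and -1.31 to -1.02 for SLC7A5. Without siCTRL 1 the exact permutation p of this ratio was 0.20.

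Per kilobase of exon, SLC7A5 was the main light chain transcript. The exon length of all annotated transcripts joined is 4745 bases for SLC7A5 and 9645 for SLC7A11. The shares and ratios given here depend on these lengths. A sum over the 6 light chains known to pair with SLC3A2 (SLC7A5, SLC7A6, SLC7A7, SLC7A8, SLC7A10 and SLC7A11), chosen after the values were seen and given with no test, was set against SLC3A2. This ratio of levels per kilobase was 1.78, 2.21 and 1.79 in the controls and between 1.09 and 1.16 in siRNA-1 cells. The control siCTRL 2 had the highest ratio, and the siRNA-1 libraries lay below all controls. SLC7A5 supplied 78.4% to 79.4% of the light chain level in the controls and 78.4% to 80.4% in siRNA-1 cells, and SLC7A11 supplied 17.5% to 18.0% and 14.3% to 15.7%. Of the other light chains, SLC7A6 did not pass the edgeR test at a log2 fold change of -0.18 (adjusted p = 0.175), SLC7A7 fell 5.62-fold from 4.10 ± 0.753 to 0.720 ± 0.353 CPM, and SLC7A8 had at most 2 counts in a library.

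**Figure D2:**
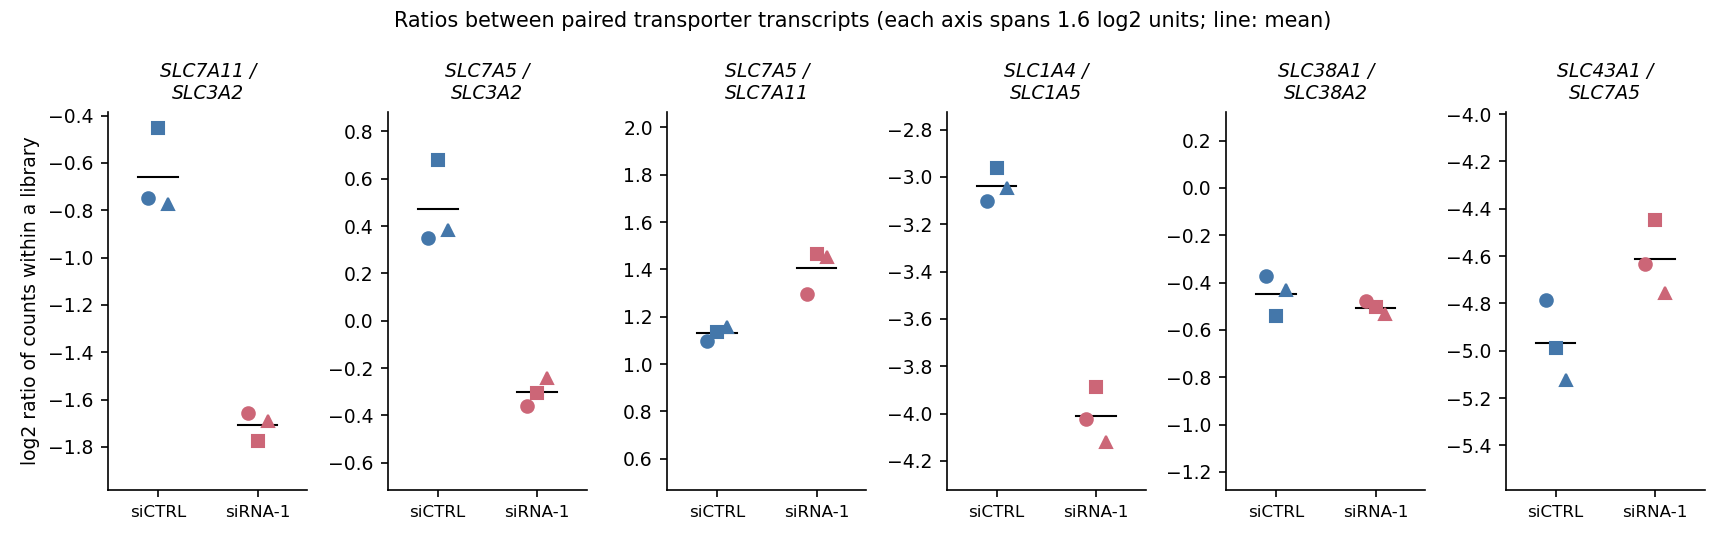
Log2 ratio of the counts of 2 transporter transcripts within each library (y axis; every panel spans the same 1.6 log2 units) for the 6 pairs, siCTRL in blue and siRNA-1 in red, lines at the means. The ratios to SLC3A2 and that of SLC1A4 to SLC1A5 moved by 0.77 to 1.05 log2 units, while that of SLC38A1 to SLC38A2 overlapped between groups through siCTRL 2.

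SLC43A1 (ENSG00000149150, chr11:57484534-57515786, minus strand) encodes LAT3, a carrier of large neutral amino acids that needs no heavy chain. Its level was the lowest of the set, at 15.2, 15.6 and 12.7 CPM in the controls and 7.75, 9.53 and 7.56 CPM in siRNA-1 cells. The groups did not overlap, with siCTRL 3 the lowest control and siRNA-1 replicate 2 the highest library of the other group. SLC43A1 fell 1.75-fold (log2 fold change -0.81, SE 0.131, adjusted p = 0.000208, edgeR). SLC7A5 carries the same class of amino acids. The log2 ratio of SLC43A1 to SLC7A5 was -4.97 ± 0.171 in the controls and -4.61 ± 0.155 in siRNA-1 cells (SD, n = 3). This ratio was 1.28-fold higher in siRNA-1 cells (exact permutation p = 0.10), but siCTRL 1 (-4.79) and siRNA-1 replicate 3 (-4.75) came close. Leaving out any library but siCTRL 1 gave an exact permutation p of 0.20, so which of these genes fell by more is not resolved. SLC43A2, a related carrier outside the set, fell 1.31-fold from 12.7 ± 0.769 to 9.66 ± 0.413 CPM.

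SLC7A1 (ENSG00000139514, chr13:29509410-29595688, minus strand) encodes CAT1, a carrier of arginine and lysine, and works without a heavy chain. Its level was 239, 256 and 243 CPM in the controls and 252, 276 and 253 CPM in siRNA-1 cells, and the groups overlapped. The log2 fold change of 0.08 had a 95% interval from -0.04 to 0.21 and did not pass (adjusted p = 0.229, edgeR). This interval lies above those of the other 9 members, the nearest of which, that of SLC3A2, ended at -0.27. The call rested on siCTRL 2: without that library SLC7A1 rose by a log2 fold change of 0.10 (adjusted p = 0.0433).

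The neutral amino acid exchangers SLC1A4 and SLC1A5 belong to 1 family and fell by different amounts. SLC1A4 (ENSG00000115902, chr2:64988477-65023865, plus strand) encodes ASCT1, which exchanges serine, alanine and cysteine. Its level was 50.3, 60.5 and 54.0 CPM in the controls and 19.3, 22.2 and 18.2 CPM in siRNA-1 cells, and all siRNA-1 libraries lay far below all controls. SLC1A4 had the largest fall of the set, 2.76-fold (log2 fold change -1.46, SE 0.096, adjusted p = 1.5e-07, edgeR), although its 95% interval overlapped that of SLC7A11.

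SLC1A5 (ENSG00000105281, chr19:46774883-46788594, minus strand) encodes ASCT2, a main route of glutamine into many cancer cells. It measured 432.5, 472 and 446 CPM in the controls and 313, 328 and 316 CPM in siRNA-1 cells, and the groups did not overlap. SLC1A5 fell 1.41-fold (edgeR log2 fold change -0.50, SE 0.053, adjusted p = 6.9e-06). The log2 ratio of SLC1A4 to SLC1A5 was -3.10, -2.96 and -3.05 in the controls and -4.02, -3.89 and -4.12 in siRNA-1 cells, a 1.96-fold lower ratio (exact permutation p = 0.10). An antisense gene shares 21.3% of the 50-base stretches of SLC1A5, and its part in the count was not tested.

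SLC38A1 and SLC38A2 encode SNAT1 and SNAT2, which use the sodium gradient to accumulate glutamine, alanine and other small neutral amino acids. They lie side by side on the minus strand of chromosome 12, SLC38A1 (ENSG00000111371) from 46183063 to 46270017 and SLC38A2 (ENSG00000134294) from 46358189 to 46372867, with SLC38A4 392 kb further on and 0 other genes of the table between them. SLC38A1 measured 416, 454 and 421 CPM in the controls and 308, 303 and 292 CPM in siRNA-1 cells. Its siRNA-1 libraries lay below all controls, and it fell 1.43-fold (log2 fold change -0.51, SE 0.054, adjusted p = 6.1e-06, edgeR).

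SLC38A2 was the transporter with the most counts, at 538, 661 and 567.5 CPM in the controls and 430.0, 430.4 and 423 CPM in siRNA-1 cells. The controls were spread more widely than the siRNA-1 libraries, with siCTRL 2 the highest, and the groups did not overlap. SLC38A2 fell 1.38-fold (edgeR log2 fold change -0.46, SE 0.070, adjusted p = 0.000121). The ratio of SLC38A1 to SLC38A2 did not differ beyond its spread, with log2 values from -0.54 to -0.37 in the controls and -0.53 to -0.48 in siRNA-1 cells (difference -0.06, exact permutation p = 0.40). This overlap rested on siCTRL 2: without it the difference was -0.10 and the groups did not overlap (exact permutation p = 0.10, the smallest that 2 against 3 libraries allow). Their neighbour SLC38A4, a related carrier, fell 4.64-fold from 19.0 ± 1.90 to 4.08 ± 0.349 CPM (adjusted p = 6.3e-08, edgeR).

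SLC6A9 (ENSG00000196517, chr1:43991500-44031467, minus strand) encodes GlyT1, which takes up glycine together with sodium and chloride. Its level was 48.2, 65.4 and 50.8 CPM in the controls and 20.04, 24.0 and 21.2 CPM in siRNA-1 cells. All siRNA-1 libraries were below all controls, and siCTRL 2 stood above the other controls by 0.40 on the log2 scale. SLC6A9 fell 2.52-fold (log2 fold change -1.33, SE 0.117, adjusted p = 1.6e-06, edgeR). Without siCTRL 2 its log2 fold change was -1.20, the smallest fall among the settings run. CCDC24, on the other strand, covers 7.83% of its exonic bases and did not pass (edgeR adjusted p = 0.594).

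**Figure D3:**
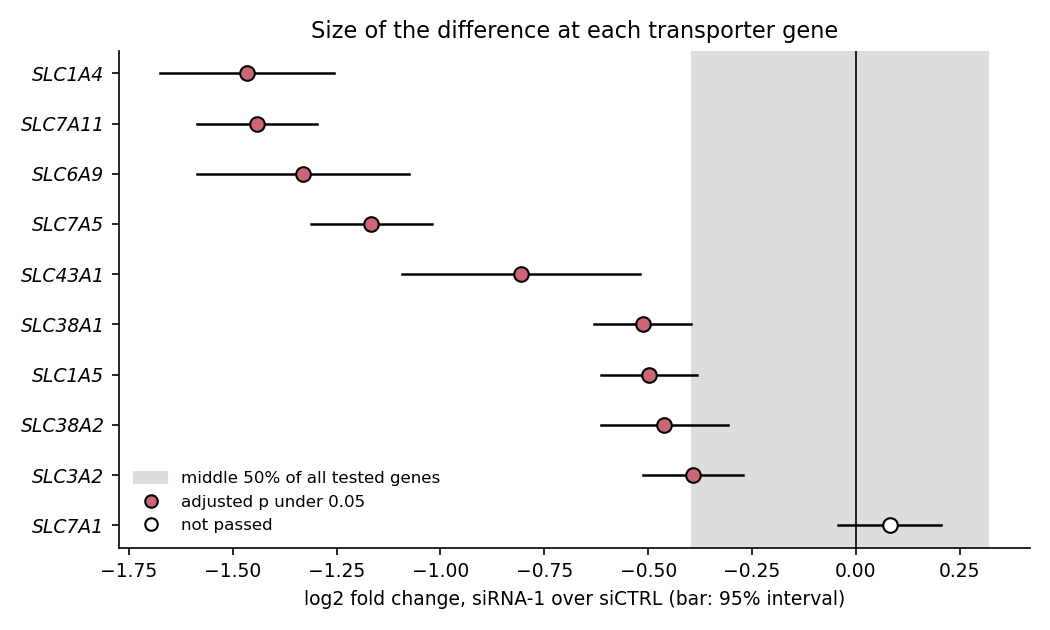
Log2 fold change of siRNA-1 over siCTRL (x axis) for the 10 transporter genes with 95% intervals; filled points passed the test, and the grey band holds the middle 50% of all tested genes, from -0.40 to 0.32. The falls lie between -1.46 and -0.39, and SLC7A1 lies at 0.08.

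The falls formed a graded series. SLC1A4, SLC7A11, SLC6A9 and SLC7A5 had log2 fold changes from -1.46 to -1.17, SLC43A1 was at -0.81, and SLC38A1, SLC1A5, SLC38A2 and SLC3A2 ranged from -0.51 to -0.39. Intervals of 95% overlapped within the first group and within the last group. SLC43A1, with the fewest counts, had an interval from -1.09 to -0.52 that overlapped those of SLC7A5 and SLC38A1. The smaller falls were of a common size: 20.2% of all tested genes had a lower log2 fold change than SLC38A1, and 25.2% than SLC3A2.

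In the control cells the members spanned a wide range of levels per kilobase of exon. SLC1A5 was highest at 135 ± 6.07 CPM per kilobase, followed by SLC7A5 at 95.3 ± 8.22 and SLC38A2 at 89.2 ± 9.69 (SD, n = 3). The ranges of SLC7A5 and SLC38A2 overlapped, so their order is not resolved. Below them came SLC3A2 (62.9), SLC38A1 (43.0), SLC7A1 (32.0), SLC7A11 (21.4), SLC6A9 (10.6), SLC1A4 (7.92) and SLC43A1 (4.10 CPM per kilobase), each with a range that did not overlap that of its neighbour.

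In siRNA-1 cells SLC1A5 was still highest, at 95.7 ± 2.32 CPM per kilobase, and SLC7A5 moved from the second place to the fourth, at 42.5 ± 1.67, behind SLC38A2 (64.8) and SLC3A2 (48.0). SLC7A1, at 33.8 ± 1.77 CPM per kilobase, passed SLC38A1 at 30.1 ± 0.817. The ranges of the lowest members, SLC1A4 at 2.86 ± 0.298 and SLC43A1 at 2.34 ± 0.308, overlapped. Exonic length is that of all annotated transcripts of a gene joined, from 3332 bases for SLC1A5 to 10015 for SLC38A1, and a cell that uses short transcripts will have a higher true level per length than given.

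**Figure D4:**
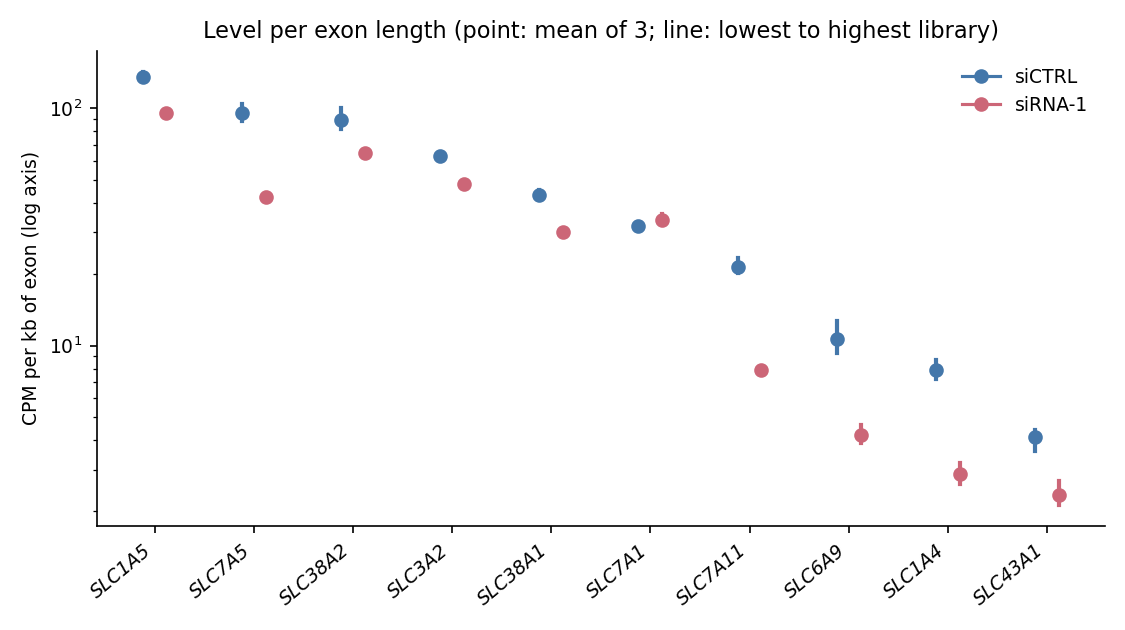
Level per kilobase of exon (y axis, log scale) of each transporter in siCTRL (blue) and siRNA-1 (red) cells; points are means of 3 libraries and lines run from the lowest to the highest library. SLC7A5 drops below SLC3A2 in siRNA-1 cells, and SLC7A1 is the gene without a drop.

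The member genes were also searched for GCTCACT, a 7-base sequence picked on these same libraries for its frequency in the 3′ untranslated regions of genes that fell at least 2-fold. It was present in such regions of 38.0% of those genes and 19.0% of the others. None of the 10 transporters carried it in an annotated 3′ untranslated region (0 of 10, against 20.5% of all tested genes). The longest of these regions ranged from 182 bases in SLC3A2 to 7859 bases in SLC7A11, and the shares were not adjusted for length. Whether 0 of 10 differs from the share over all tested genes was not tested.

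The counts for related lists that follow stand against 31.0% lower and 31.5% higher among all tested genes, and where a list is near these shares its count says nothing particular of it. Of 30 other amino acid carriers of the cell surface 11 could be tested, 4 fell, 2 rose and 5 did not pass, so that 54.5% passed, against 62.5% of all tested genes (median log2 fold change -0.18). SLC6A6, the taurine carrier, rose 1.98-fold from 161 ± 6.72 to 318 ± 10.8 CPM, and the glutamate carrier SLC1A3 rose 1.41-fold. Carriers of the lysosome fell at 1 and rose at 5 of 9 tested genes. SLC66A1, which exports cationic amino acids from the lysosome, rose 1.93-fold from 26.8 ± 2.64 to 51.9 ± 4.34 CPM, and SLC38A7, a lysosomal glutamine carrier, rose 1.52-fold. Among mitochondrial carriers 6 of 12 tested rose and 3 fell. The glutamate carrier SLC25A22 rose 3.08-fold from 37.0 ± 1.97 to 114 ± 2.24 CPM, and the serine carrier SFXN1 rose 1.75-fold. SLC25A18 rose 2.40-fold at a very low level, from 0.397 ± 0.168 to 0.953 ± 0.0841 CPM. SLC25A13 rose 1.57-fold and SFXN3 fell 1.48-fold. The counts of falls in these lists changed with single libraries: 2 lysosomal carriers fell without siCTRL 2 and 0 without siCTRL 1 or without siRNA-1 replicate 1, and 1 mitochondrial carrier fell without siRNA-1 replicate 2. Whether these lists differ from the 10 transporters was not tested.

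Of the transcription factors known to act on the transporter genes, ATF4 fell 1.55-fold from 329 ± 29.4 to 212 ± 8.19 CPM. A list of 14 genes held ATF4, its partners, the kinases above it and genes induced by stress. Of these 6 fell, 4 rose and 4 did not pass (71.4% passed, against 62.5% of all tested genes). TRIB3 (4.01-fold), DDIT4 (3.31-fold) and NUPR1 (3.12-fold), which are induced by stress, fell, as did CEBPG and SESN2. The rises were those of ATF5 (2.22-fold) and of the kinases EIF2AK1, EIF2AK2 and EIF2AK4. DDIT3 (log2 fold change 0.007, edgeR adjusted p = 0.96), ATF3 (-0.09, edgeR adjusted p = 0.41), CEBPB and EIF2AK3 did not pass. MYC fell 1.46-fold from 174 ± 9.19 to 120 ± 6.74 CPM. NFE2L2, the gene of NRF2, did not pass the edgeR test at a log2 fold change of 0.10 (adjusted p = 0.405), while KEAP1, which marks NRF2 for breakdown, rose 1.48-fold. Of the hypoxia factors, EPAS1 fell 4.62-fold and HIF1A fell 3.97-fold. CD44, a surface protein of which a splice form holds SLC7A11 at the membrane, fell 1.67-fold.

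SLC7A11 supplies cystine for glutathione, and of 10 tested genes of cystine and glutathione use 7 rose and 3 fell. GCLM, a subunit of the first enzyme of glutathione synthesis, rose 1.77-fold from 96.0 ± 1.27 to 170 ± 1.07 CPM, and the peroxidase gene GPX1 rose 1.73-fold. CHAC1, which degrades glutathione, fell 4.21-fold, and CTH, which makes cysteine inside the cell, fell 2.16-fold from 53.7 ± 1.26 to 24.8 ± 3.96 CPM. Of 23 tested enzymes that make or use the carried amino acids 13 fell and 4 rose. PHGDH and PSAT1, of serine synthesis, fell 16.4-fold and 3.75-fold, ASNS, the asparagine synthetase, fell 5.33-fold, and BCAT1, which transaminates the branched-chain amino acids carried by SLC7A5 and SLC43A1, fell 3.43-fold from 183 ± 16.1 to 53.4 ± 2.63 CPM.

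**Figure D5:**
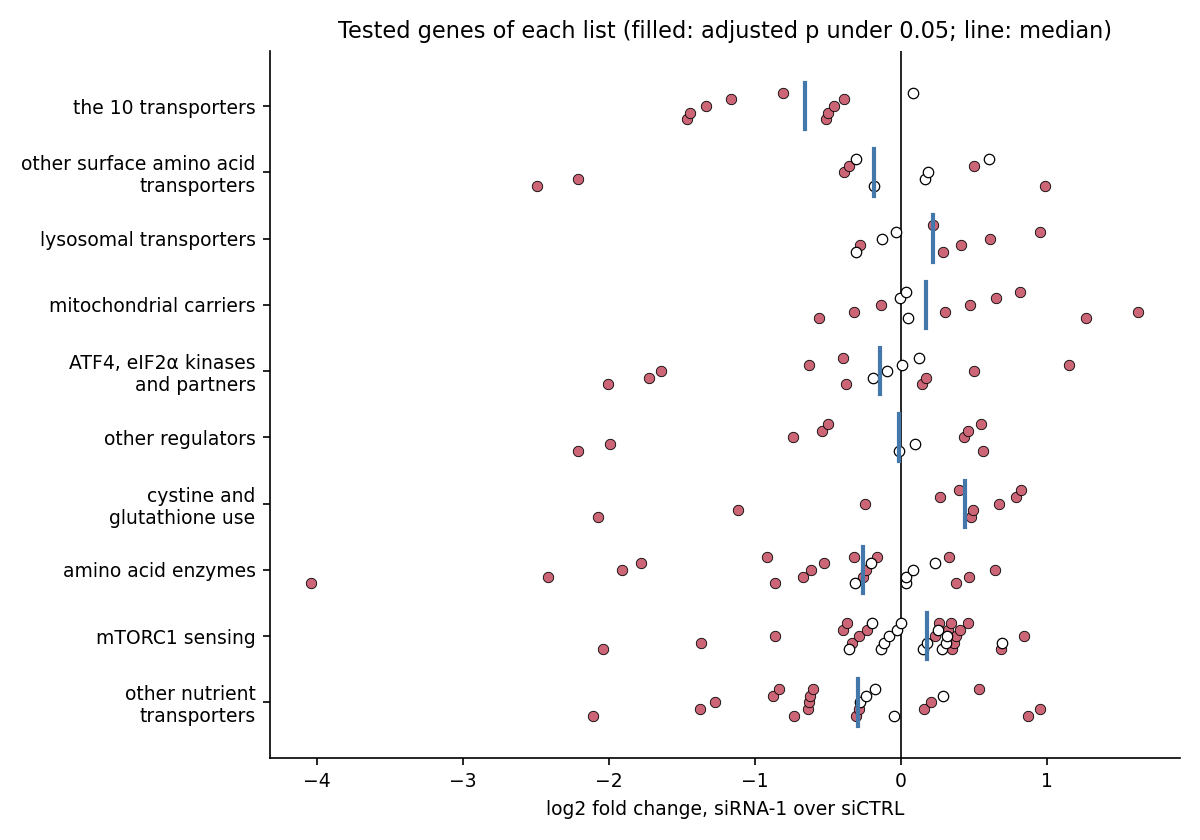
Each point gives the log2 fold change of siRNA-1 over siCTRL (x axis) for a gene, shown for every tested gene of the transporter set and of 9 related lists (rows); filled points passed the test and the vertical line in each row is the median. The median of the 10 transporters is -0.66, and that of the genes of cystine and glutathione use is 0.44.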

How the data were processed

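The deposited table gives raw counts per Ensembl gene, made by the authors with HTSeq per the labels; the submitters' processing notes also name Trimmomatic, STAR and kallisto and the build hg38 (GRCh38). For annotation release, strand setting and filters: not given in the sources used here. Libraries were prepared with a NEBNext Ultra RNA kit per the labels' protocols. Symbols were matched by Ensembl identifier, and positions and exon lengths come from GENCODE 29.

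Counts were analysed with R 4.3.3 and edgeR 4.0.16: filterByExpr (minimum count 10, total 15), TMM scaling, a quasi-likelihood F test of group (two-sided, no covariate) and Benjamini-Hochberg adjustment over the 12440 genes tested at 0.05. Each SE is the absolute log2 fold change over the root of F. Alternatives were DESeq2 1.42.0 (size factors, Wald test), limma 3.58.1 (voom), library size alone, other filters, a threshold of 0.01, the replicate number as a block and leaving out each library. Pair ratios are the log2 of 1 raw count over the other, with no pseudocount (1 count added to both as an alternative). The steps were tested on simulated data. Named genes were all members and, of each related list, at most 4 changed genes with the largest log2 fold change at a mean log2 CPM of at least 1, plus ATF4, MYC, NFE2L2, SLC7A6, SLC7A8 and SLC43A2. Other genes were named after their values were seen. Members and lists were chosen with earlier results of these data known. A result on a neighbouring gene and 1 promoter match are not reported here. Intervals cover the spread between libraries only.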

Additional observations from a re-analysis of the deposited data

How the results depend on the processing

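The count of 9 falls among the 10 transporters was the same under all 15 settings that give it, the main one included, and the median log2 fold change of the set ranged from -0.72 to -0.61. Each of the 9 falls kept its direction and passed in all 14 alternatives, the highest adjusted p being 0.00224 (SLC43A1, without siRNA-1 replicate 1). The count of rises was 0 in every setting but 1: without siCTRL 2 it was 1 (SLC7A1), with a range of 0 to 1 when single libraries were left out. With the replicate number as a block 9 transporters fell and 7535 genes changed. Deviations from the group means correlated at 0.067, -0.078 and -0.057 for equal numbers. For unequal numbers the values ran from -0.095 to 0.115. No pairing by number was seen in these values, and the labels do not say whether equal numbers share a batch. An exact permutation of the ratios within replicate numbers gave p = 0.25 for 5 of the 6 pairs, the smallest it allows. Among related lists, falls of lysosomal carriers, 1 in the reported analysis, numbered 2 with no filter, with a mean of at least 100 counts and by the DESeq2 Wald test, 0 at a threshold of 0.01, and 0 to 2 with single libraries left out (2 without siCTRL 2, 0 without siCTRL 1 or siRNA-1 replicate 1). At 0.01, 1 mitochondrial carrier fell, 2 genes of the ATF4 list rose and 5 genes of mTORC1 sensing fell. Leaving out single libraries gave 1 (without siRNA-1 replicate 2) to 3 falls of mitochondrial carriers. The cause of these changes was not tested beyond the stricter threshold itself. Leaving out a library left at least 2 per group. Depth limits SLC43A1 most, at 111 to 222 counts per library.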

Other observations

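Of 22 tested carriers of sugars, lactate, nucleosides, vitamins, phosphate and choline 12 fell and 5 rose (median -0.30 on the log2 scale), where 31.0% of all tested genes fell and 31.5% rose. The glucose carrier SLC2A3 fell 4.32-fold, from 92.6 ± 6.92 to 21.4 ± 1.18 CPM, and SLC2A1, another glucose carrier, fell 1.84-fold. SLC5A3, which takes up inositol, fell 2.60-fold and the monocarboxylate carrier SLC16A1 fell 2.41-fold from a low level of 3.48 ± 1.01 CPM. The largest rise of this list was that of SLC16A7, 1.94-fold from 11.3 ± 1.17 to 21.8 ± 1.16 CPM.

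Of 33 genes by which mTORC1 senses amino acids 11 rose and 8 fell, and the 57.6% that passed were close to the 62.5% of all tested genes, so the count shows nothing particular to the list. RRAGD, a Rag GTPase that recruits mTORC1 to the lysosome, fell 2.59-fold from 64.2 ± 7.73 to 24.8 ± 2.00 CPM, and RRAGB fell 1.82-fold. Among the sestrins, SESN3 fell 4.10-fold from 13.6 ± 3.94 to 3.29 ± 0.226 CPM and SESN1 rose 1.80-fold, while SESN2, the leucine sensor, fell by 0.40 on the log2 scale.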
